A study of Mus musculus with 24 samples.

Results

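The genes described here are 8 markers of oligodendrocyte precursors and newly formed oligodendrocytes: Pdgfra, Cspg4, Lhfpl3, C1ql1, Neu4, Gpr17, Bcas1 and Enpp6. They were taken by symbol from the 33364 genes of the count tables, and all 8 were found once and passed the filter on low counts in every comparison. RNA was sequenced from punches of 2 cortical regions of C57BL/6 mice, the medial prefrontal (mPFC) and the anterior cingulate (ACC) cortex. The mice were 3 months old and were killed 2 weeks after spared nerve injury (SNI) or a sham operation. In SNI, branches of the sciatic nerve are cut while the tibial nerve is spared, which gives a lasting neuropathic pain. There were 8 groups: female sham, female SNI, male sham and male SNI, in the mPFC and in the ACC. Each group had 3 libraries, each from a pool of several animals, so the spread between libraries is smaller than that between single mice. Whether both regions of a pool came from the same animals was not given in the sources used here.

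Oligodendrocyte precursors divide throughout adult life and are spread through the grey and white matter of the cortex. They respond to platelet-derived growth factor through Pdgfra, and those that leave the cell cycle pass through a short premyelinating stage before they make myelin. Pdgfra and the proteoglycan Cspg4 (NG2) mark the precursor, the receptor Gpr17 marks committed cells that are about to differentiate, and Bcas1 and Enpp6 mark newly formed oligodendrocytes. Bcas1 is also found in myelin, and cells outside the lineage carry some of these markers: Cspg4 is made by pericytes and Pdgfra by meningeal fibroblasts. In bulk tissue fewer cells of a type and less RNA per cell cannot be told apart.

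The libraries held 23853845 to 32864391 counted reads. A count of 3, taken as the floor, corresponds to 0.0913 to 0.126 CPM, the normalized read count scaled to library size. All members were far above it, from the lowest count of 59 (Enpp6 in a female SNI mPFC library) to the highest of 2878 (Bcas1 in a female sham ACC library). All genes of the neuron, astrocyte, microglia and mature oligodendrocyte lists passed the filter, as did those of the vascular and meningeal lists. A female SNI mPFC library, replicate 1, stood apart: the summed level of the 15 mature oligodendrocyte genes was 1234 CPM there. It was 3072 and 2805.5 CPM in the other libraries of that group. The SNI results for the members in the mPFC are given with and without it where it moved them by more than 0.05 on the log2 scale. A pair of sham libraries moved the number of genes called most when left out: without female sham mPFC replicate 3, calls for SNI in the female mPFC went from 1 to 2758, and without male sham ACC replicate 3, calls in the male ACC went from 1 to 2305.

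In GRCm38, Pdgfra is at chr5:75152292-75198215, Cspg4 at chr9:56865033-56899870, Enpp6 at chr8:46986887-47096762, Lhfpl3 at chr5:22746059-23275597 and Neu4 at chr1:94020451-94028334, all on the plus strand. Bcas1 is at chr2:170346991-170427845 and C1ql1 at chr11:102939264-102946688, on the minus strand. Exons of Lhfpl3 overlap those of A930003O13Rik on the other strand (579 reads over the 24 libraries against 10636). The strand mode of the counting was not given in the sources used here, so reads from the overlaps cannot be assigned to a strand. Antisense transcripts over exons of Bcas1 had 25 and 28 reads, and those over exons of Pdgfra 2 and 8.

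Promoter sequence was found for 5 of the 8 members (RefSeq, GRCm38.p6), as the 250 bases before a RefSeq start, which for Enpp6 is the GENCODE gene start given above and for the others lies before or after it. The following 3 are shown because they belong to the receptor that defines the precursor, to the member with the largest SNI difference and to a member called between the regions in sham males. Capitals mark matches to CANNTG, the E-box that Olig factors bind, and to ACAAT, the core bound by Sox factors, each searched on both strands. Pdgfra is at chr5:75152001-75152250, Enpp6 at chr8:46986637-46986886 and Lhfpl3 at chr5:22745804-22746053, all plus strand.
Pdgfra: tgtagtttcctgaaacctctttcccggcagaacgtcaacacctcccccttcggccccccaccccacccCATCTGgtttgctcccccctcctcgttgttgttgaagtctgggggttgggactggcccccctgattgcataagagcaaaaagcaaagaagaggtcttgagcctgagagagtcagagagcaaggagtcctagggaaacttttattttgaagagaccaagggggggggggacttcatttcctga
Enpp6: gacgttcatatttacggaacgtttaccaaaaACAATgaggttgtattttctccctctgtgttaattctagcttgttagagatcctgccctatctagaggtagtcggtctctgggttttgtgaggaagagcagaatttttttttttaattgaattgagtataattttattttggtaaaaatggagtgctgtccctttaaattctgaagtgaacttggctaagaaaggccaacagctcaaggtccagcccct
Lhfpl3: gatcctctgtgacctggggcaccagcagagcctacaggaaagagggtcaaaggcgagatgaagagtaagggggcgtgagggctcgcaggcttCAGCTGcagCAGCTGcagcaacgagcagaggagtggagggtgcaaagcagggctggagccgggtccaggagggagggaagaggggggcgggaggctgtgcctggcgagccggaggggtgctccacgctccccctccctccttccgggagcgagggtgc
The Pdgfra window held 1 CANNTG and no ACAAT, the Enpp6 window 1 ACAAT and no CANNTG, and the Lhfpl3 window 2 CANNTG, both with GC in the centre. Of 32851 promoters of this length 66.2% held CANNTG, 27.7% held ACAAT and 13.0% held the CAGCTG form. The GC content was 54.4%, 38.4% and 67.2% in the order shown. The Cspg4 window held 1 ACAAT, and the Neu4 window 1 of each of CANNTG and ACAAT. A match is a description of the letters only.

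On the scale of CPM per kilobase of exon, which allows levels of different genes to be compared, Bcas1 was highest with a mean of 20.7 over the 24 libraries. Gpr17 followed with 8.65, Pdgfra with 6.45, Lhfpl3 with 5.15, C1ql1 with 3.81, Cspg4 with 2.95, Neu4 with 1.44 and Enpp6 with 0.857. The members fell into a steady and a variable kind. For Bcas1 the highest library was 3.90 times the lowest and for Enpp6 3.30 times, while for the other 6 members this ratio was 1.35 to 1.74. The median coefficient of variation within a group was 16.4% for Bcas1 and 22.3% for Enpp6, against 3.87% to 7.41% for the others.

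**Figure D1:**
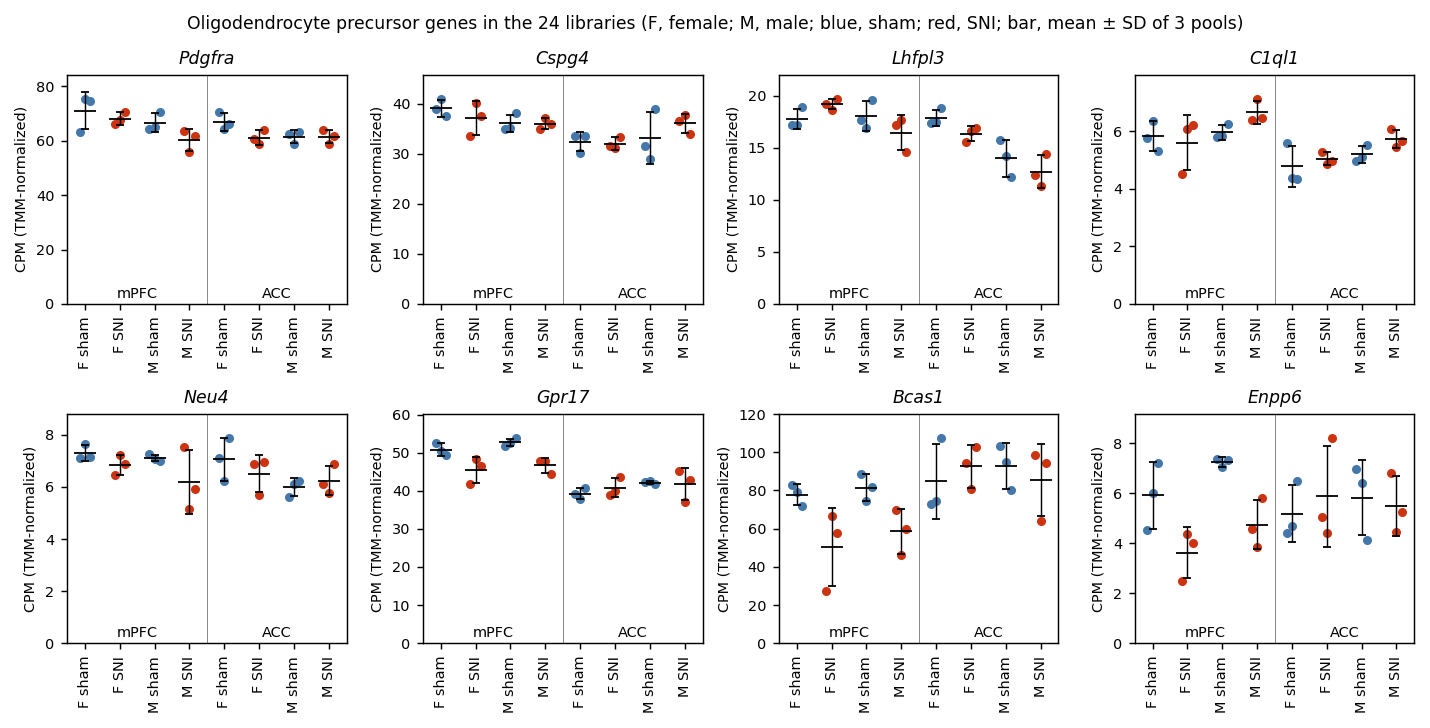
Level of each member (CPM, TMM-normalized over 24 libraries) in the 8 groups, mPFC left and ACC right of the line. Points are libraries (sham blue, SNI red) and bars are the mean ± SD of 3 pools. In the mPFC the SNI points of Bcas1 and Gpr17 lie below all sham points, and in the ACC those of these genes overlap with sham.

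The first question was whether SNI changed these genes in the mPFC, a region tied to the affective side of pain. The largest differences were in Enpp6 and Bcas1, genes of newly formed oligodendrocytes, which were lower after SNI in both sexes. Gpr17 was also lower in both sexes, with log2 fold changes of −0.17 in males and −0.16 in females. The other members had differences of either sign, from −0.19 (Neu4, males) to 0.16 (C1ql1, males). Enpp6 in the male mPFC was the only member called a DEG (FDR < 0.1). The test called 0.494% of 16989 genes there, and 0.341% as lower. In the female mPFC 0.00592% of 16897 genes were called, and no member. At an unadjusted p under 0.05 there were 4 of 8 members in the male mPFC, against 11.2% of all genes, and 2 of 8 in the female mPFC, against 12.1%. All SNI pools lay below all sham pools for 4 of 8 members in males (Enpp6, Bcas1, Gpr17 and Pdgfra), against 9.44% of all genes. In females this held for 3 of 8 members (Enpp6, Bcas1 and Gpr17), against 7.61%. C1ql1 went the other way in males, with all SNI pools (6.39, 7.13 and 6.47 CPM) above all sham pools (5.82, 5.83 and 6.27 CPM).

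Enpp6 is a choline-specific phosphodiesterase that is made by newly formed oligodendrocytes. In the male mPFC its levels were 7.37, 7.04 and 7.35 CPM in the sham pools and 4.58, 3.86 and 5.80 CPM in the SNI pools. All SNI pools lay below all sham pools. The coefficient of variation of these sham pools was 2.57%, against 20.7% to 34.4% in the other groups. Counting alone gives 8.25% at the mean count of Enpp6 over 24 libraries, so the sham spread was unusually small. The log2 fold change was −0.61 (SE 0.14), with an adjusted p of 0.0985 in edgeR's quasi-likelihood test, close to the threshold. The call was kept in 1 of 6 fits that left out a library, with log2 fold changes from −0.77 to −0.48. In the female mPFC the levels were 4.53, 6.00 and 7.22 CPM in sham and 2.49, 4.38 and 4.02 CPM in SNI. These did not overlap either, and the log2 fold change was −0.69 (SE 0.21, adjusted p = 0.401 in edgeR). Without the female SNI library that stood apart it was −0.49.

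Bcas1 encodes a protein of early myelinating cells. In the male mPFC it was at 88.4, 74.4 and 81.8 CPM in sham and at 69.6, 46.1 and 60.0 CPM in SNI. The pools did not overlap, and the log2 fold change of −0.47 (SE 0.11) had an adjusted p of 0.108 in edgeR, just short of the threshold. In the female mPFC it was at 82.8, 79.1 and 71.7 CPM in sham and at 27.5, 66.4 and 57.6 CPM in SNI. The first SNI library was far below the others, and the log2 fold change was −0.62 (SE 0.22, adjusted p = 0.401 in edgeR) with it and −0.33 without it. Without female sham mPFC replicate 3 it was −0.68 and Bcas1 was called (adjusted p = 0.0833 in edgeR), as were 15.9% of all genes.

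Gpr17, a G protein-coupled receptor of committed precursors, had a smaller and more even difference. Its gene is at chr18:31942997-31949636 on the minus strand, and its exons overlap those of Lims2 on the other strand, which had 6470 reads over the 24 libraries against 28913 for Gpr17. Its levels in the male mPFC were 51.8, 52.6 and 53.7 CPM in sham and 47.7, 47.8 and 44.5 CPM in SNI. In the female mPFC they were 52.6, 50.4 and 49.3 CPM in sham and 41.7, 48.3 and 46.5 CPM in SNI. The pools did not overlap in either sex, with log2 fold changes of −0.17 (SE 0.05) in males and −0.16 (SE 0.07) in females. The adjusted p-values in edgeR were 0.223 and 0.416. Without the female library that stood apart the female value was −0.10.

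With both sexes in a single fit of 12 libraries, the log2 fold change in the mPFC was −0.65 (SE 0.14) for Enpp6, −0.54 (SE 0.15) for Bcas1 and −0.16 (SE 0.04) for Gpr17. None was called (adjusted p = 0.328, 0.349 and 0.349 in edgeR), in a comparison in which 0% of 17641 genes was called. At an unadjusted p under 0.05 there were 3 of 8 members, against 7.33% of all genes. For Gpr17 and Bcas1 the 6 SNI libraries of both sexes lay below the 6 sham libraries, which held for 0.357% of all genes in that direction. Without the library that stood apart these log2 fold changes were −0.56, −0.40 and −0.14.

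The precursor genes differed less than Enpp6 and Bcas1. Pdgfra, the receptor for PDGF-A, was at 64.3, 65.1 and 70.6 CPM in the male sham mPFC and at 63.5, 55.8 and 61.6 CPM after SNI, without overlap (log2 fold change −0.14, SE 0.06, adjusted p = 0.384 in edgeR). In the female mPFC the groups overlapped, with 63.1, 75.3 and 74.4 CPM in sham and 66.0, 67.8 and 70.6 CPM in SNI (log2 fold change −0.06, SE 0.08). Cspg4, the NG2 proteoglycan, had log2 fold changes of −0.08 (SE 0.08) in the female and 0.00043 (SE 0.06) in the male mPFC. The values were 0.11 and −0.13 for Lhfpl3, a tetraspan protein, and −0.09 and −0.19 for Neu4, a sialidase. C1ql1, a secreted protein that binds the adhesion receptor Adgrb3, had −0.05 and 0.16. The 95% intervals of these 4 genes in the mPFC all held 0, and their bounds lay between −0.47 and 0.39. Without the female library that stood apart, the female value of C1ql1 changed sign to 0.08, that of Cspg4 was −0.0088 and that of Neu4 −0.05.

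**Figure D2:**
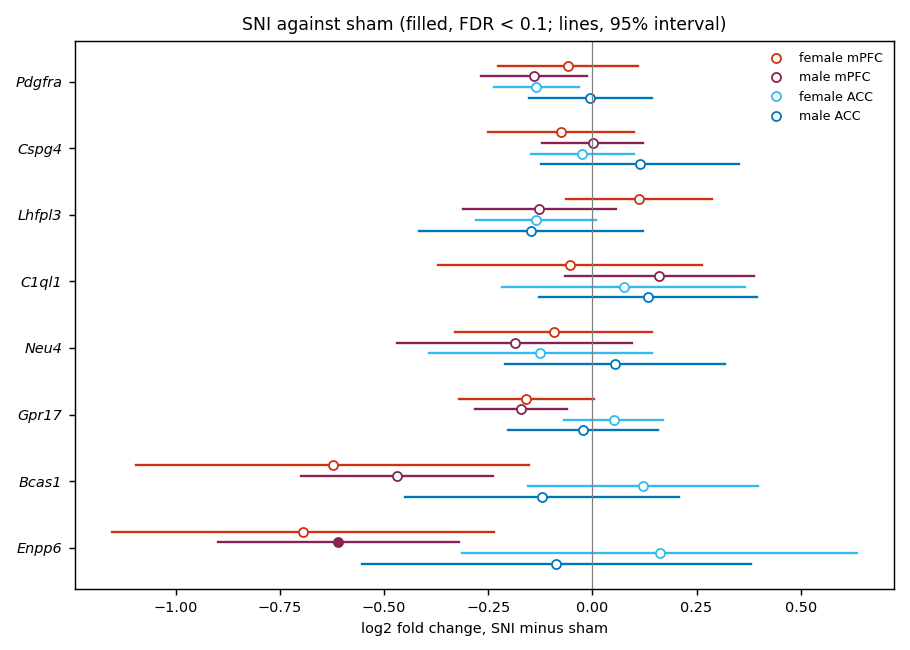
Log2 fold change, SNI minus sham, of each member in the 4 combinations of sex and region, with 95% intervals. A filled point marks an FDR under 0.1. In the mPFC of females and males Enpp6 lies at −0.69 and −0.61 and Bcas1 at −0.62 and −0.47, and in the ACC all intervals of these genes hold 0.

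In the ACC no member was called in either sex, where 0.024% (female) and 0.00599% (male) of genes were. At an unadjusted p under 0.05 there was 1 of 8 members in females, against 6.67% of all genes, and 0 of 8 in males, against 4.48%. The 1 member was Pdgfra, at 70.4, 64.3 and 66.1 CPM in the female sham ACC and at 60.6, 58.8 and 64.0 CPM after SNI. In that direction 2 of 8 members did not overlap, Pdgfra and Lhfpl3, against 5.6% of all genes (Pdgfra log2 fold change −0.13, SE 0.05, adjusted p = 0.635 in edgeR). The female ACC is also where Col3a1, a collagen of fibroblasts, was called lower (log2 fold change −0.99, SE 0.14, adjusted p = 0.067 in edgeR). All 10 meningeal fibroblast genes were negative there. Their sum was 242, 140 and 160 CPM in the sham pools and 119, 121 and 117 CPM in the SNI pools. The highest sham sum was that of replicate 1, which also had the highest Pdgfra level of its group (70.4 CPM). The part of the meningeal genes in the Pdgfra value was not tested. In the fit over both sexes the ACC values of Enpp6, Bcas1 and Gpr17 were 0.05 (SE 0.17), 0.0081 (SE 0.12) and 0.02 (SE 0.05).

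Whether the effect of SNI differed between the regions was tested as an interaction over all 24 libraries. The difference of the log2 fold changes, mPFC minus ACC, was −0.69 (SE 0.24) for Enpp6, −0.55 (SE 0.21) for Bcas1 and −0.19 (SE 0.06) for Gpr17. None was called (adjusted p = 0.495, 0.543 and 0.496 in edgeR), and 0% of 18078 genes was. These were the 3 of 8 members with an unadjusted p under 0.05, against 8.19% of all genes. Without the female SNI mPFC library that stood apart the differences were −0.61, −0.42 and −0.17. The interaction of sex with SNI called no member in either region, with a smallest adjusted p of 0.322 in edgeR for Lhfpl3 in the mPFC (difference 0.24, SE 0.12, female minus male). No member had an unadjusted p under 0.05 in that test, against 15.8% of all genes in the mPFC and 5.92% in the ACC.

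Other genes of the lineage were read by stage, as counts and medians beside those of all genes tested. How much of the reads of these genes came from cells outside the lineage was not tested. The median log2 fold change of the mature list in the mPFC was −0.55 in females and −0.54 in males, and all 15 genes were negative in both sexes. The medians of all genes were −0.0034 and 0.0013. In males 9 of 15 were called lower, with Mal, Cnp and Ermn (log2 fold changes −0.61, −0.46 and −0.71, each with an adjusted p of 0.0558 in edgeR) first. Mbp, a main protein of myelin, had a log2 fold change of −0.46 and Mog −0.56 (adjusted p = 0.0607 each in edgeR). In females none of the 15 was called (Mbp −0.62, Mog −0.60). Without the library that stood apart the female median was −0.25, with 14 of 15 negative (Mbp −0.31, Mog −0.26). Without female sham mPFC replicate 3 it was −0.61, with 3 called lower, in a fit that called 15.9% of all genes. In the ACC the median of this list was 0.18 for females, with all 15 genes positive, and −0.07 for males, with 10 negative, and none was called. Without male sham ACC replicate 3 the male median was −0.19, with all 15 negative and 2 called. That fit called 13.5% of all genes.

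Of the lists outside the lineage, the astrocyte list had a call in the male mPFC, for Gfap (log2 fold change −0.32, SE 0.06, adjusted p = 0.0729 in edgeR), and the mural, meningeal, endothelial, microglia and neuron lists had none in the mPFC. The summed level of the 10 neuron genes was 10394 to 10696 CPM in the male sham mPFC and 11126 to 11491 CPM after SNI, without overlap, and 4 of the 10 had an unadjusted p under 0.05. In females it was 10127 to 11080 CPM in sham and 10153 to 11045 CPM in SNI. The part of this shift in the member values was not tested.

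The lists nearest to the members had smaller medians. The 16 other precursor genes had medians of −0.04 and −0.03 in the female and male mPFC, with 9 negative and none called in each sex. Olig1 and Olig2, the factors of the whole lineage, had −0.33 and −0.36 in females and −0.08 and −0.12 in males. Sox10, which also acts in mature cells, had −0.54 (adjusted p = 0.401 in edgeR) in females and −0.36 (adjusted p = 0.144) in males. Without the library that stood apart Olig1, Olig2 and Sox10 had −0.22, −0.21 and −0.31 in females. Without female sham mPFC replicate 3 they were called lower (−0.40, −0.40 and −0.62), in a fit that called 15.9% of all genes. Ptprz1 and Vcan, which mark the precursor, had 0.08 and 0.02 in females and −0.05 and −0.15 in males. Of the 13 other genes of newly formed oligodendrocytes 9 were negative in females and 12 in males, with medians of −0.08 and −0.10, and none was called. Without the library that stood apart the female median was −0.0060, with 8 negative. Tcf7l2 and Itpr2 of that list had 0.02 and −0.02 in females and −0.10 and −0.04 in males.

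**Figure D3:**
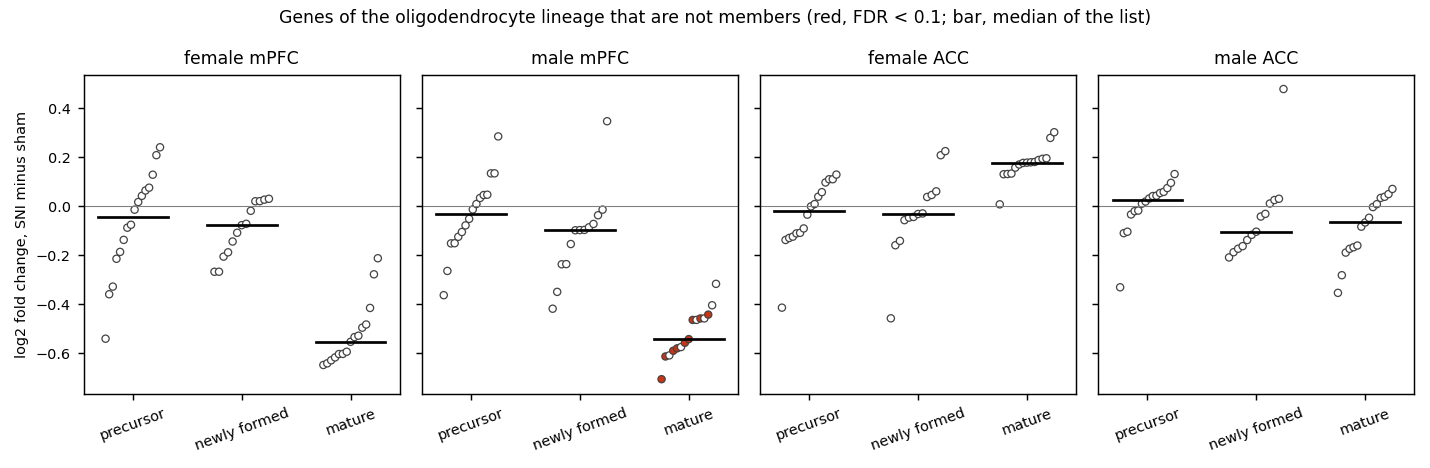
Log2 fold change, SNI minus sham, of 16 precursor, 13 newly formed oligodendrocyte and 15 mature oligodendrocyte genes that are not members, per sex and region. Bars are medians and red points have an FDR under 0.1. The mature genes have medians of −0.55 and −0.54 in the mPFC, and those of the female ACC lie above 0 with a median of 0.18.

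The members were then set beside the summed level of the mature list in each library. In the mPFC this sum was 3284 to 3752 CPM in female sham, 1234 to 3072 CPM in female SNI, 3718 to 4261 CPM in male sham and 2198 to 3198 CPM in male SNI. Bcas1 followed it closely: Pearson's r of the log2 values was 0.97 (Spearman's rho 0.95) over 24 libraries, 0.92 without the 2 libraries farthest from the median sum, 0.95 within the 12 ACC libraries and 0.85 within the 12 sham libraries. Per 1000 CPM of the mature list, Bcas1 was at 21.1 to 23.6 CPM in the female sham mPFC and at 20.5 to 22.3 in female SNI. In males it was at 20.02 to 20.7 in sham and 20.4 to 21.8 in SNI. The ratio thus overlapped between SNI and sham in each sex, and it held also in the library that stood apart.

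Enpp6 followed the mature list more loosely, with r = 0.84 (rho 0.77) over 24 libraries, 0.74 without the 2 farthest and 0.69 within the sham libraries. Per 1000 CPM of that list it was at 1.73 to 1.89 CPM in the male sham mPFC and 1.43 to 1.97 in male SNI, and at 1.29 to 2.20 and 1.43 to 2.01 in the female groups. For Gpr17 the same ratio did not overlap and was higher after SNI, at 12.2 to 14.1 in male sham and 14.9 to 21.7 in male SNI, and at 13.4 to 15.02 and 15.7 to 33.8 in the female groups. This was not particular to Gpr17. The mature sum by which the level is divided was itself lower after SNI, so a member that fell less gets a higher ratio by construction. The ratio was also higher without overlap in both sexes for Cspg4, Lhfpl3, Neu4 and C1ql1, and in males for Pdgfra. For Cspg4 it was 8.20 to 9.44 in male sham and 10.9 to 16.9 in male SNI. Gpr17 had r = 0.12 over 24 libraries, but 0.85 within the 12 mPFC libraries and 0.76 within the 12 ACC libraries, where it had different levels. For the remaining members r lay between −0.26 and 0.22 over 24 libraries. Within the 12 mPFC libraries it was 0.535 for Neu4, 0.46 for C1ql1 (rho −0.13), 0.42 for Cspg4, 0.28 for Pdgfra and −0.20 for Lhfpl3. Within the 12 ACC libraries these members had r between −0.26 and 0.12. These values are descriptions: the points share the library and its normalization, the mPFC libraries hold the difference between SNI and sham, and how far the mature list accounts for the member values was not tested.

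**Figure D4:**
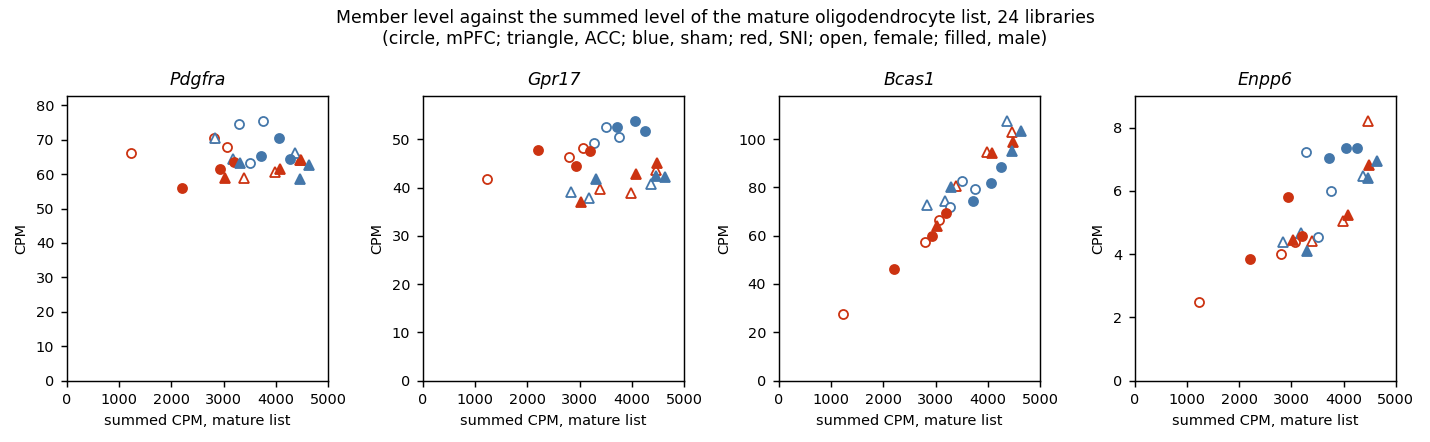
Level of Pdgfra, Gpr17, Bcas1 and Enpp6 (CPM) against the summed CPM of 15 mature oligodendrocyte genes in 24 libraries. Circles are mPFC, triangles ACC, blue sham, red SNI, open female and filled male. Bcas1 rises with the sum (r = 0.97), Pdgfra does not (r = −0.01), and Gpr17 forms 1 band for each region.

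The next question was how the members differed between the regions. In sham mice Gpr17 was higher in the mPFC than in the ACC in both sexes. Female levels were 52.6, 50.4 and 49.3 CPM in the mPFC and 39.0, 38.0 and 40.8 CPM in the ACC. Male levels were 51.8, 52.6 and 53.7 CPM in the mPFC and 42.2, 42.5 and 41.8 CPM in the ACC. The groups lay far apart, with log2 fold changes of 0.38 (SE 0.06, adjusted p = 0.002 in edgeR) for the female and 0.33 (SE 0.06, adjusted p = 0.00633) for the male pools. Over all 24 libraries the value was 0.25 (SE 0.04, adjusted p = 3.01e-06 in edgeR), and it was called in all 24 fits that left out a library. The sham libraries of this comparison are those used as controls for SNI.

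The other regional calls in sham mice were for Cspg4 and Lhfpl3. Cspg4 was called higher in the mPFC of sham females, at 38.9, 40.9 and 37.5 CPM against 33.6, 30.2 and 33.5 CPM in the ACC (log2 fold change 0.28, SE 0.07, adjusted p = 0.0172 in edgeR). In sham males its ACC pools were spread from 28.9 to 39.0 CPM and the difference was 0.13 (SE 0.10, adjusted p = 0.527 in edgeR). Leaving out the highest of these, replicate 3, gave 0.26 with an adjusted p of 0.0157. Lhfpl3 was called higher in the mPFC of sham males, at 17.6, 16.9 and 19.6 CPM against 15.7, 14.2 and 12.2 CPM in the ACC (log2 fold change 0.38, SE 0.11, adjusted p = 0.0451 in edgeR). This call was kept in 2 of 6 fits that left out a library, those without male sham ACC replicate 1 or 3. In sham females the regional difference of Lhfpl3 was −0.0021 (SE 0.08). So 2 of 8 members were called in each sex, all as higher in the mPFC, where 14% of genes in females and 7.46% in males were called higher (28.5% and 14.2% in either direction). The mPFC pools lay above all ACC pools for 2 of 8 members in females, against 17.5% of all genes, and for 6 of 8 in males, against 14.3%. Without male sham ACC replicate 3, 5 of 8 members were called in males, against 27% of all genes, and without female sham mPFC replicate 3, 3 of 8 in females, against 41.5%. Whether these regional differences themselves differ between the sexes was not tested.

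Over all 24 libraries, where 23.9% of genes were called higher and 24.1% lower in the mPFC (48% in all), 5 of 8 members were called higher and 1 lower. The higher ones were Gpr17 (above), Lhfpl3 (log2 fold change 0.24, adjusted p = 0.000818), C1ql1 (0.21, adjusted p = 0.00331), Cspg4 (0.15, adjusted p = 0.00928) and Pdgfra (0.08, adjusted p = 0.0523), all in edgeR. The call for Pdgfra was kept in 19 of 24 fits that left out a library, and the calls for the other 4 in all 24. Bcas1 was the lower one (log2 fold change −0.43, SE 0.12, adjusted p = 0.00496 in edgeR). In sham mice alone Bcas1 was not called, with −0.11 (SE 0.13) in females and −0.18 (SE 0.10) in males, though it was called lower in males without male sham ACC replicate 3 (−0.27, adjusted p = 0.00993 in edgeR). Enpp6 (−0.08, SE 0.14) and Neu4 (0.09, SE 0.06) were not called.

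**Figure D5:**
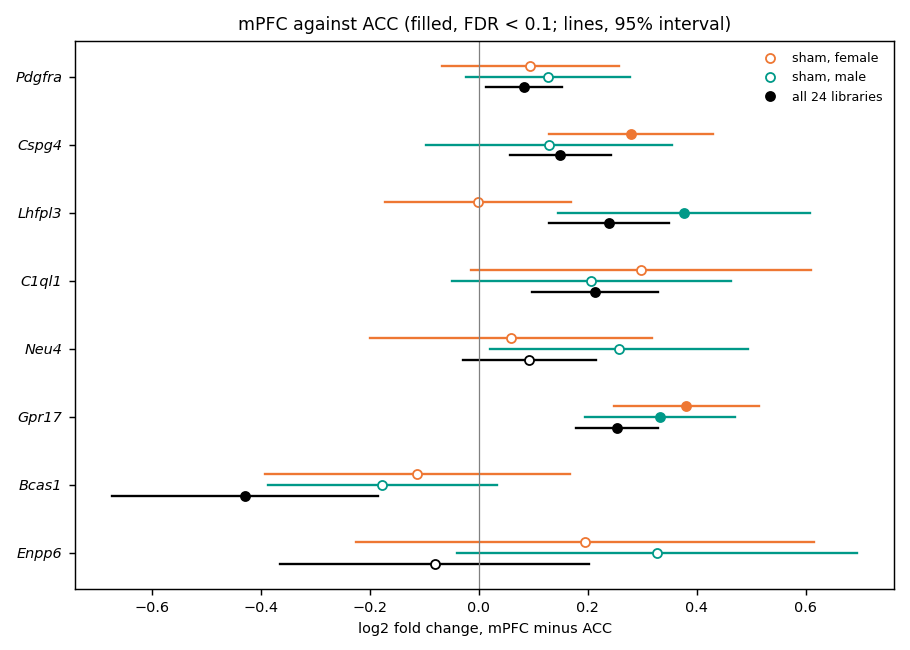
Log2 fold change, mPFC minus ACC, of each member in sham females, sham males and all 24 libraries, with 95% intervals. A filled point marks an FDR under 0.1. Gpr17 is filled in all 3 fits, between 0.25 and 0.38, and Bcas1 is below 0 and filled in the fit of 24 libraries.

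Marker genes of the cells outside the lineage that carry Cspg4 or Pdgfra were mostly lower in the mPFC. Over all 24 libraries 8 of 10 mural genes (Rgs5, Abcc9 and Vtn first, log2 fold changes −0.36, −0.35 and −0.26) were called lower in the mPFC, and none higher. Of all genes 24.1% were called lower and 23.9% higher. Of the meningeal fibroblast genes 9 of 10 were called lower, led by Ogn, Col3a1 and Igf2 (−1.34, −0.89 and −0.70). All 10 endothelial genes were lower too, led by Flt1, Kdr and Esam (−0.29, −0.31 and −0.33). In sham females the mural sum was 222 to 242 CPM in the mPFC and 262 to 316 CPM in the ACC, and the meningeal sum was 89.3 to 114 CPM and 140 to 242 CPM. The remaining lists had 10 genes each. Of these, 1 astrocyte gene was called higher and 8 lower, 7 microglia genes higher and none lower, and 2 neuron genes higher and 7 lower. The part of these cells in the levels of Cspg4 and Pdgfra was not tested.

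The other precursor and newly formed lists had calls in both directions between the regions. Over 24 libraries 23.9% of all genes were called higher and 24.1% lower in the mPFC. Of the 16 other precursor genes 5 were called higher and 4 lower in that fit, with a median of 0.0087. The first by adjusted p were Cacng4 (0.35), Rlbp1 (0.30) and Megf11 (−0.19). Of the named ones, Olig1 was called lower (−0.13, adjusted p = 0.0954 in edgeR), and Olig2 (−0.06), Sox10 (0.05), Ptprz1 (0.03) and Vcan (0.08) were not called. The Olig1 call was lost without female SNI mPFC replicate 1 (−0.09, adjusted p = 0.188 in edgeR) or male sham ACC replicate 3 (−0.13, adjusted p = 0.108). In sham females without female sham mPFC replicate 3, Olig1 was called higher in the mPFC (0.24, adjusted p = 0.0345 in edgeR). That fit called 41.5% of all genes. Of the 13 other newly formed oligodendrocyte genes 4 were higher and 3 lower, led by Mycl (0.60), Cemip2 (0.41) and Rap2a (0.20), and Itpr2 was lower (−0.20). Of the 15 mature genes 12 were lower, with a median of −0.34 (Gjb1, Aspa and Ugt8a first, −0.49, −0.46 and −0.41). In sham mice 2 of them were called lower in females and none in males, where 28.5% and 14.2% of all genes were called in either direction.

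The ligands and relatives of the members were also compared. Of the 19 measured, 9 were called higher and 8 lower in the mPFC over 24 libraries, against 23.9% and 24.1% of all genes. Their median was 0.01. C1ql3 and C1ql2, the relatives of C1ql1, went in opposite directions. C1ql3 was at 256 ± 20.4 CPM (SD) in the mPFC and 148 ± 15.5 CPM in the ACC (log2 fold change 0.79, SE 0.05, adjusted p = 7.84e-13 in edgeR). C1ql2 was at 0.822 ± 0.288 CPM in the mPFC and 3.63 ± 1.15 CPM in the ACC (log2 fold change −2.13, SE 0.18, adjusted p = 4.71e-10). Pdgfc, a ligand of Pdgfra, was higher in the mPFC (0.47, SE 0.05, adjusted p = 1.71e-08). Pdgfa, the main ligand of Pdgfra, was called higher by a small margin (0.06, adjusted p = 0.0945). That call was lost without female SNI mPFC replicate 1 or female sham mPFC replicate 3 (adjusted p = 0.137 and 0.155 in edgeR). No ligand or relative was called for SNI in any sex and region, and the log2 fold change of Pdgfa was −0.10 for female and 0.06 for male mice in either region.

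Cell cycle genes, which report on dividing cells of any type, were near the floor: 5 of 10 were kept by the filter over 24 libraries. Mki67 was called higher in the mPFC (1.89 ± 0.407 CPM against 1.15 ± 0.339 CPM, log2 fold change 0.73, SE 0.15, adjusted p = 0.000327 in edgeR), and so was Top2a (0.42, adjusted p = 0.0508). None was called for SNI. The summed level of the 5 was 5.07 to 6.55 CPM in the female sham mPFC and 4.42 to 6.82 CPM after SNI. Among males it was 4.52 to 5.89 CPM in sham and 4.37 to 5.27 CPM in SNI.

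No member was called between sham females and males, in comparisons where 0.177% of genes in the mPFC and 0.0958% in the ACC were called. The smallest adjusted p-values were 0.518 in the mPFC and 0.587 in the ACC, in edgeR. At an unadjusted p under 0.05 there were 0 of 8 members in the mPFC, against 10.6% of all genes, and 1 of 8 in the ACC, against 6.64%. That member was Lhfpl3 in the ACC, at 17.4, 17.5 and 18.8 CPM in females and 15.7, 14.2 and 12.2 CPM in males. The female pools lay above the male pools for 2 of 8 members, Lhfpl3 and Pdgfra, against 6.68% of all genes. For Gpr17 the female pools (39.0, 38.0 and 40.8 CPM) lay below the male pools (42.2, 42.5 and 41.8 CPM). For Lhfpl3 the log2 fold change, female minus male, was 0.35 (SE 0.10). Of the mature genes, Ugt8a was lower in females in the mPFC (−0.49, SE 0.08, adjusted p = 0.0647 in edgeR).

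Ordered by group mean, the levels of most members ran together. Of the 7 steps between neighbours in that order, the pools were separated at 1 step for Pdgfra, Gpr17, Bcas1 and C1ql1 and at none for Cspg4, Lhfpl3, Neu4 and Enpp6. For Gpr17 the male sham mPFC was highest, at 52.7 ± 0.965 CPM (SD, n = 3), and the female sham ACC lowest, at 39.3 ± 1.44 CPM, with the 4 mPFC groups above the 4 ACC groups and the separated step between the sham and SNI groups of the mPFC. For Bcas1 the male sham ACC was highest (92.8 ± 11.9 CPM) and the female SNI mPFC lowest (50.5 ± 20.4 CPM), with the separated step below the female sham mPFC. Enpp6 was highest in the male sham mPFC (7.25 ± 0.186 CPM) and lowest in the female SNI mPFC (3.63 ± 1.01 CPM). Lhfpl3 was highest in the female SNI mPFC (19.2 ± 0.504 CPM) and lowest in the male SNI ACC (12.7 ± 1.60 CPM).

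The genes most like each member over the 24 libraries, by Pearson's r of log2 CPM among 18077 other genes, also set the members apart. For Bcas1 they were Mobp (0.98), Qdpr (0.98) and Trf (0.98), of which Mobp and Trf are in the mature list. For Enpp6 they were Slain1 (0.89), Mal (0.88) and Creb5 (0.88), and for Gpr17 Tppp3 (0.92), Efnb3 (0.92) and Clmn (0.90). The highest values were lower for Pdgfra (Six3 0.82, Erlin2 0.77, Plce1 0.77) and Neu4 (Slc14a2 0.76, Cdhr3 0.73, Rhou 0.71). For Cspg4 they were Rfx1 (0.90), Krba1 (0.90) and Ptk7 (0.90), for Lhfpl3 Rfx3 (0.91), Arl4a (0.89) and Adam10 (0.89), and for C1ql1 Fxyd7 (0.90), Naa80 (0.87) and Klf13 (0.86). The libraries share region, sex and treatment, so these values describe a common pattern over the 8 groups.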

How the data were processed

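RNA was sequenced from 24 libraries, 3 pools in each of 8 groups. The authors deposited 4 tables of counts, whole numbers of reads per gene without normalization. The submitters' processing notes name Trimmomatic 0.36, Bowtie2, HISAT2 2.1.0, HTSeq 0.9.1 and GRCm38. The annotation and the strand mode of counting are not given in the sources used here. A column gives sex, treatment and number, and the region comes from its table.

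The counts were analysed in R 4.3.3 with edgeR 4.0.16: TMM, filterByExpr (a count of 10, a total of 15), the legacy quasi-likelihood F-test and an FDR under 0.1 over all genes tested, on the groups compared. Fits over 12 libraries had sex as a term, and the regional fit over 24 had sex and treatment. Levels are CPM scaled with TMM over 24 libraries, and log2 values for likeness used a prior count of 2. Symbols, positions and exon lengths came from GENCODE M21, which held 33336 of 33364 genes. The steps were tested on simulated data.

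All 8 members are named in every comparison. From other lists (precursor, newly formed and mature oligodendrocyte, ligands and relatives, cell cycle, mural, meningeal, endothelial, astrocyte, microglia, neuron) the called genes are named, at most 3 per list and comparison, with Pdgfa, Olig1, Olig2, Sox10, Ptprz1, Vcan, Tcf7l2, Itpr2, Mbp and Mog always; another gene of the rule is not reported here. The 3 genes most like each member are named too. Members and lists were chosen with earlier results of these data known. P-values measure the spread between pools. Alternatives were DESeq2 1.42.0, RLE factors, the likelihood ratio test, the current quasi-likelihood method, genes unfiltered or with at least 10 counts throughout, a block for the replicate number, a model over 24 libraries, and each library left out.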

Additional observations from a re-analysis of the deposited data

How the results depend on the processing

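Over the alternatives, 1993 values of single members had an adjusted p: 16 no longer passed the threshold, 29 newly passed it and 0 reversed, with a member called in neither fit counted as unchanged. DESeq2 gave no adjusted p for 7 values, Enpp6 in the male mPFC among them, so no count of its calls is given there. The number of members called stayed within 1.5 times in 224 of 249 fits, and the cause of the 25 changes was not tested. For SNI in the male mPFC, where 1 member was called, 2 were called without the low-count filter, with at least 10 counts in every library, by the likelihood ratio test and by the current quasi-likelihood method (Bcas1 was added in each), and 0 in a model over all 24 libraries. In that order these fits called 2.01%, 0.821%, 2%, 0.659% and 0% of all genes. In the female mPFC, with 0 called, 2 were called without the filter, where 2.19% of all genes were. In the mPFC of both sexes, with 0, there was 1 by DESeq2, 2 without the filter and 2 by the likelihood ratio test. These fits called 0.357%, 1.71% and 0.601% of all genes. The region by SNI interaction, with 0, gave 2 without the filter (Enpp6 and Bcas1), where 1.01% of all genes were called.

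Leaving out each library in turn gave 0 to 1 members for SNI in the female mPFC (1, Bcas1, without female sham replicate 3) and in the male mPFC. In the male mPFC Enpp6 was called in the fit without male SNI replicate 3 only, and Bcas1 in place of it without male SNI replicate 1. These fits called 0.288% and 0.73% of all genes. The range was 0 to 1 in the male ACC and for sex by SNI in the ACC (Cspg4, without male sham replicate 3). Without that library 13.5% and 9.65% of all genes were called. The range was also 0 to 1 for females against males in the sham mPFC (Enpp6, without female sham replicate 3, where 15.5% of all genes were called). For the regions in sham males it was 1 to 5, with 5 without male sham ACC replicate 3, and 1 without male sham ACC replicate 2 or any of the mPFC replicates. In sham females it was 2 to 3 and over 24 libraries 5 to 7.

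Same-numbered libraries deviated together little (correlations of −0.06 to 0.10 between the regions, −0.10 to 0.15 between sham and SNI, −0.10 to 0.13 between the sexes), so the numbers were not taken to pair the pools. With the replicate number as a block, 3 members were called for SNI in the male mPFC (Enpp6, Bcas1 and Gpr17) and 1 in the mPFC of both sexes (Enpp6). These fits called 4.39% and 0.244% of all genes.

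Calls over all genes, behind the percentages, moved more. With all libraries kept, the SNI calls of 84 in the male mPFC became 0 (a model over all 24 libraries) to 745 (replicate block), 1 in the female mPFC became 0 to 641, 4 in the female ACC 0 to 398, 1 in the male ACC 0 to 10, and 0 in the mPFC of both sexes 0 to 539. For sham females against males 30 in the mPFC became 25 to 459 and 16 in the ACC 10 to 115. The other counts that were 0 reached 40 (ACC, both sexes), 883 (sex by SNI, mPFC), 110 (sex by SNI, ACC) and 338 (region by SNI), each without the filter. Leaving out a library gave 0 to 2758 SNI calls in the female mPFC, 7 to 126 in the male mPFC, 1 to 136 in the female ACC, 0 to 2305 in the male ACC and 0 to 12 in the mPFC of both sexes. It gave 2268 to 7084 regional calls in sham females and 1135 to 4654 in sham males, 14 to 2667 sex calls in the mPFC and 10 to 69 in the ACC, and up to 3283 (mPFC) and 1698 (ACC) for sex by SNI. The highest values were without female sham mPFC replicate 3 (female mPFC, regions in females, sex and sex by SNI in the mPFC), male sham ACC replicate 3 (male ACC, regions in males, sex and sex by SNI in the ACC), female sham ACC replicate 2 (female ACC), male SNI mPFC replicate 1 (male mPFC) and male sham mPFC replicate 1 (mPFC, both sexes). The lists were also refitted without 3 single libraries, chosen after seeing the data.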
